A study of Mus musculus with 4 samples.

Results

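The 9 genes described here lie on mouse chromosome 9 around Tlr9, the gene disrupted in the TLR9-/- mice of this study. They are Pxylp1, Bfsp2, Tmem108, Wdr82, Ppm1m, Twf2, Alas1, Abhd14b and Parp3, 9 of the 31053 genes in the deposited count tables. They were picked by name, with their levels in TLR9-/- and wild-type (WT) cells already known, so that some differ between the genotypes and some do not. Their values in that comparison are therefore given as a description, without a test. Bone marrow was flushed from femur and tibia, mononuclear cells were collected on a Ficoll gradient, and 1 single-cell 5′ RNA library was made per mouse from 2 TLR9-/- and 2 WT mice of strain C57BL/6. By the study's methods the mice were handled in 2 separate experiments with 1 mouse of each genotype in each, and the labels do not say which libraries share an experiment. The TLR9-/- mice lack functional TLR9 in every cell, no other allele or treatment is named for either group, and the age and sex of these 4 mice were not given in the sources used here. Libraries are called WT 1, WT 2, TLR9-/- 1 and TLR9-/- 2 after their labels, and pairs of values are in the order 1, 2.

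TLR9 is an endosomal receptor for unmethylated CpG DNA, and in mice it is best known from plasmacytoid dendritic cells and B cells. A gene is commonly disrupted in embryonic stem cells of one mouse strain and then moved to another strain by backcrossing. Around the disrupted gene a stretch of the first strain's DNA usually stays, which is called passenger or flanking DNA, and neighbouring genes on it can carry variants of the first strain. The sources used here do not name the strain of the stem cells or the number of backcrosses, and no genotypes of the region were analysed here.

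The kept cells numbered 8895 to 10781 per library, with 31210188 to 63958243 unique molecular identifiers (UMIs, counted RNA molecules) in all and a median of 1759 to 3618 UMIs per cell. Both TLR9-/- libraries were the deeper ones. Pairs of libraries shared 118 to 203 cell barcodes, at most 1.83% of the smaller library. The cells fell into 28 clusters. Classes were named for the cells that their leading marker genes resemble (monocyte stands for monocyte-like, and so on), and 10 classes had at least 100 cells in every library. B lineage cells (B-cell precursors and mature B cells) numbered 5031 and 4218 in WT and 3181 and 2185 in TLR9-/- libraries. Monocyte lineage cells (monocytes, their precursors and macrophages) numbered 1150 and 1112 in WT and 2451 and 2252 in TLR9-/-, and neutrophils 857 and 1667 in WT and 1551 and 1983 in TLR9-/-. Precursors of granulocytes were not separated from monocyte precursors. A cluster of that class was led by Elane, Ms4a3, Prtn3 and Mpo. Of these, Elane, Prtn3 and Mpo stood in the marker lists of both kinds of precursor. This cluster held 45.0% and 65.1% of the UMIs of the class in WT and 35.0% and 52.2% in TLR9-/-. Levels are given as CPM, the UMIs of a gene per 1000000 UMIs of the named cells in that library, and are compared between samples and cells for 1 gene at a time, not between genes. In sums over all cells, fewer cells of a type and less RNA per cell cannot be told apart.

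The targeted gene was checked first. Over all cells Tlr9 had 120 and 97 UMIs (3.84 and 2.34 CPM) in WT and 41 and 48 UMIs (0.817 and 0.75 CPM) in TLR9-/-. Both TLR9-/- libraries were below both WT libraries, and reads assigned to Tlr9 remained in them. In dendritic cells, which had the highest mean WT level, Tlr9 was at 18.9 and 11.96 CPM in WT and 3.70 and 4.21 CPM in TLR9-/-. Which part of the gene was replaced was not given in the sources used here, so whether the remaining reads lie outside it is unknown.

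In the mouse build GRCm38 (the mm10 of the files, with GENCODE M21 positions) Tlr9 spans chr9:106222598-106226883 on the plus strand. Its close neighbours toward lower coordinates are Wdr82, whose protein is a subunit of the histone H3 lysine 4 methyltransferase complexes of SET1 (chr9:106170928-106191139, plus strand), Ppm1m, a protein phosphatase of the PP2C family (chr9:106194947-106199746, minus strand), and Twf2, twinfilin 2, which binds actin monomers (chr9:106203108-106215389, plus strand). On the other side lie Alas1, the housekeeping form of the enzyme that starts haem synthesis (chr9:106233455-106248654, minus strand), Abhd14b, an alpha/beta-hydrolase (chr9:106447459-106452923, plus strand), and Parp3, an ADP-ribosyltransferase of DNA break repair (chr9:106470322-106476949, minus strand). Abhd14b starts 224.86 kb and Parp3 247.72 kb from the start of Tlr9. Much farther out are Tmem108, which encodes a transmembrane protein studied mainly in neurons (chr9:103482947-103761837, minus strand, 2.74 Mb away), and Bfsp2, which encodes phakinin of the lens beaded filament (chr9:103424924-103480420, minus strand, 2.80 Mb away). The most distant is Pxylp1, a phosphatase of the xylose that links chains to proteoglycans (chr9:96823336-96892669, minus strand, 9.40 Mb away). The files list 128 genes between the starts of Pxylp1 and Parp3, 17 of them between the starts of Wdr82 and Parp3. The coordinates of 5 of the 9 genes overlap a gene on the opposite strand: Bfsp2, Tmem108, Alas1, Abhd14b (with Abhd14a) and Parp3 (with Rrp9). How the counting used strand was not stated, so reads of these partners may be mixed with theirs.

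RefSeq promoter windows (GRCm38.p6, 250 bases before to 50 after a transcript start) were found for 8 of the 9 genes, all but Twf2. Those of 4 genes with wide genotype differences are shown as the reference has them, 5′ to 3′ along the gene's own strand. Capitals mark matches, on either strand, to the TATA box TATAAA (held by 13.6% of all 32851 RefSeq windows), the CCAAT box (37.4%), the GC box GGGCGG (35.7%) and the ETS-type site CCGGAAGT (3.89%).
Abhd14b, chr9:106448390-106448689, plus strand: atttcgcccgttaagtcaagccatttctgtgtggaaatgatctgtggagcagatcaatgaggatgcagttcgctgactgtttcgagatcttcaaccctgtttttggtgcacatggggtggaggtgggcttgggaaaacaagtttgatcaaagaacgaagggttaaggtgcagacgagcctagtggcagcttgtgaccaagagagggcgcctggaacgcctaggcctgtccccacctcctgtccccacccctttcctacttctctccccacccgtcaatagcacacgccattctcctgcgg
Parp3, chr9:106476900-106477199, minus strand: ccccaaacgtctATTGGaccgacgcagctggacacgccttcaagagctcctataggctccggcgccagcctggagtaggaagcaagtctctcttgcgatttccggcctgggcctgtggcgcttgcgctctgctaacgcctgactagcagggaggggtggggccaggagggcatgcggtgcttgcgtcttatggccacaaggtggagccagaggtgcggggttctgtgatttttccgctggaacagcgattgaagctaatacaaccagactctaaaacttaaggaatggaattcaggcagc
Bfsp2, chr9:103449127-103449426, minus strand: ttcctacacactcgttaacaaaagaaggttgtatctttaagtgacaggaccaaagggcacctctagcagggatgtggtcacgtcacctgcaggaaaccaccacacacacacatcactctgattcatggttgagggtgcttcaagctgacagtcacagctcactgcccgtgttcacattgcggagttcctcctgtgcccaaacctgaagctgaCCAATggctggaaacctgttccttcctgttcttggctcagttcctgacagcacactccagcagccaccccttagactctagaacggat
Alas1, chr9:106247905-106248204, minus strand: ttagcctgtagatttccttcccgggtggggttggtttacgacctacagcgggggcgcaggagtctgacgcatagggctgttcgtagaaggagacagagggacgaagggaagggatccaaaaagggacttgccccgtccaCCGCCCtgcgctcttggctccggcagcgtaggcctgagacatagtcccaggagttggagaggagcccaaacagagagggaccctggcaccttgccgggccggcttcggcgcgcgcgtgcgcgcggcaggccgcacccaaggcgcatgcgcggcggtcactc
The window of Abhd14b held none of the 4 motifs. Those of Parp3 and Bfsp2 each held 1 CCAAT match, on opposite strands, and the first of 2 Alas1 windows held 1 GGGCGG match, on the reverse strand. These matches are descriptions of the reference letters only, and no base was read from the mice. The RefSeq starts of Bfsp2, Abhd14b and the Alas1 window shown lie inside the GENCODE spans given above.

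The comparison of TLR9-/- with WT libraries asked which of the 9 genes differ between the genotypes, and in which cells. Over all cells both TLR9-/- libraries lay below both WT libraries for 5 genes (Pxylp1, Bfsp2, Tmem108, Abhd14b and Parp3), above them for 2 (Twf2 and Alas1), and overlapped for Wdr82 and Ppm1m. Among all genes tested there, 25.9% had both TLR9-/- libraries below and 25.1% above. In the B lineage 4 genes were below (15.4% of all genes tested) and 2 above (19.8%). In the monocyte lineage 5 were below (20% of all genes) and 1 above (22.8%), and in neutrophils 5 were below (24.9%) and 1 above (12.8%). All 9 genes passed the filter on low counts in the first 3 sets of cells, and 8 did in neutrophils, where Abhd14b did not. Since the genes were chosen with these values known, nothing is read from the counts. Separations within single classes and clusters are described below without such shares, which were not computed for them. Fold changes below are log2 values of TLR9-/- against WT from edgeR's fit, with SE. The SE is not an output of that fit. It was taken as the size of the log2 fold change over the square root of the test's F statistic.

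**Figure D1:**
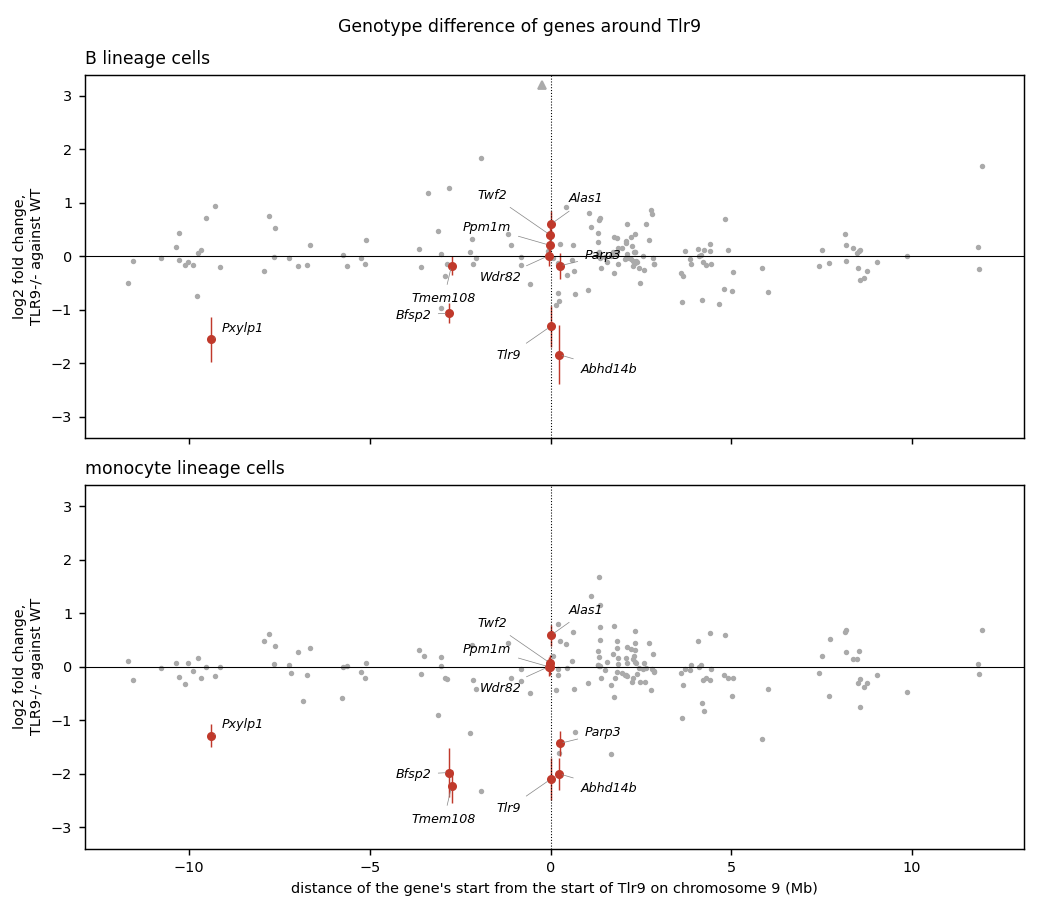
Each point is 1 gene tested on chromosome 9, placed by the distance of its start from the start of Tlr9 (Mb) and by its log2 fold change, TLR9-/- against WT (2 libraries each), in B lineage cells (top) and monocyte lineage cells (bottom). Red points with SE bars are Tlr9 and the 9 genes described, grey points are all other genes, and the triangle is a gene beyond the axis (Col6a4, 0 UMIs in WT). In the monocyte lineage Abhd14b, Parp3, Bfsp2, Tmem108 and Pxylp1 lie between −1.29 and −2.24, while Wdr82, Ppm1m and Twf2 lie within 0.07 of 0.

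**Figure D2:**
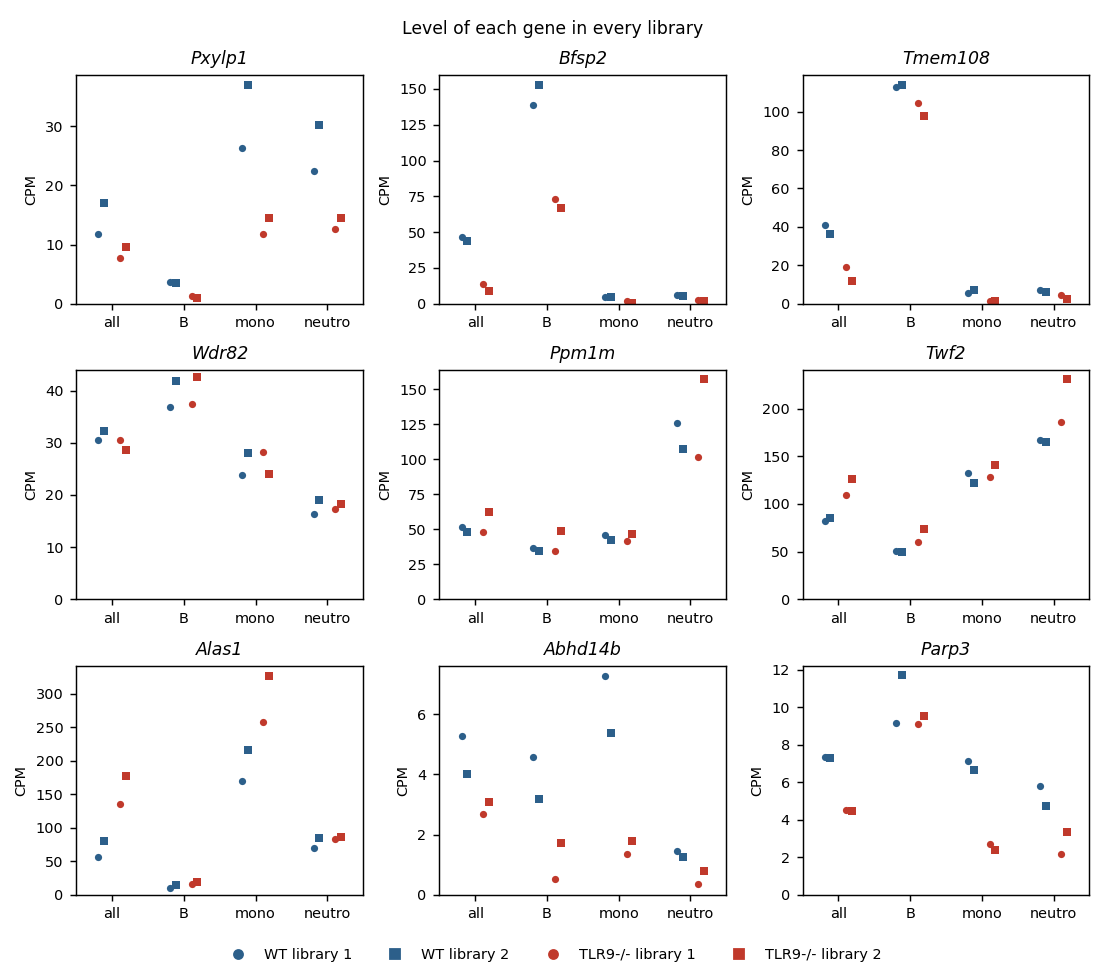
CPM of each of the 9 genes in every library, over all cells and in the B lineage (B), monocyte lineage (mono) and neutrophils (neutro), with blue for WT, red for TLR9-/-, circles for library 1 and squares for library 2. Axes start at 0. The genotypes separate for Bfsp2 in the B lineage and for Abhd14b and Parp3 in the monocyte lineage, and mix for Wdr82 and Ppm1m.

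Wdr82 and Ppm1m, whose starts lie 51.67 and 27.65 kb before that of Tlr9, overlapped between the genotypes over all cells and in the B lineage, monocyte lineage and neutrophils. Wdr82 was at 30.5 and 32.3 CPM over all WT cells and at 30.5 and 28.5 CPM over all TLR9-/- cells. Its log2 fold changes were −0.09 ± 0.13 over all cells, 0.01 ± 0.19 in the B lineage, 0.00 ± 0.17 in the monocyte lineage and 0.07 ± 0.22 in neutrophils. Each of these values was smaller than its SE. Ppm1m was at 51.4 and 48.2 CPM over all WT cells and at 48.2 and 62.2 CPM over all TLR9-/- cells, a log2 fold change of 0.15 ± 0.17. Its direction depended on 1 library: without TLR9-/- 2 the value was −0.05, and without TLR9-/- 1 it was 0.33. Ppm1m RNA was most abundant in WT dendritic cells (158 and 142 CPM) and then in WT neutrophils (126 and 107 CPM), and in dendritic cells of TLR9-/- mice it was at 139 and 150 CPM, within overlap of WT. By class, both genes separated the genotypes in places. Ppm1m was higher in TLR9-/- in monocytes (59.4 and 67.8 CPM against 52.9 and 50.6 CPM in WT) and in mature B cells (72.4 and 75.6 CPM against 65.0 and 55.8 CPM). Wdr82 was lower in TLR9-/- monocytes (24.4 and 22.4 CPM against 25.2 and 33.4 CPM in WT) and higher in TLR9-/- erythroid cells (32.1 and 32.0 CPM against 28.6 and 31.2 CPM).

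Twf2, the neighbour nearest to Tlr9 on that side, was higher in both TLR9-/- libraries over all cells, at 110 and 127 CPM against 81.8 and 85.4 CPM in WT (log2 fold change 0.49 ± 0.14). It differed in the same direction in the B lineage (60 and 73.6 CPM against 50.7 and 49.1 CPM) and in neutrophils (186 and 231 CPM against 167 and 165 CPM). Monocyte lineage libraries overlapped, at 128 and 141 CPM in TLR9-/- and 132 and 122 CPM in WT. By class, TLR9-/- was above WT in 7 of the 10 classes, among them erythroid cells (27.8 and 25.7 CPM against 22.0 and 18.9 CPM) and mature B cells (96.7 and 90.3 CPM against 76.3 and 70 CPM). The ratio of mean CPM, TLR9-/- over WT, was between 1.23 and 1.34 in those 7 classes. In progenitors (HSPC, hematopoietic stem and progenitor cells), T cells and monocyte precursors the libraries overlapped. Neutrophils had the highest WT level of Twf2, apart from the next class, T cells.

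Alas1 starts 10.86 kb beyond the start of Tlr9 and showed the opposite sign to most of the distant genes. Over all cells it was at 56.1 and 80 CPM in WT and at 136 and 178 CPM in TLR9-/-, a log2 fold change of 1.20 ± 0.24. Monocyte precursors carried most of this RNA, with 259 and 283 CPM in WT against 348 and 415 CPM in TLR9-/-, and the TLR9-/- libraries held more monocyte lineage cells (2451 and 2252 against 1150 and 1112). Granulocyte precursors were not separated from this class, and their part of its Alas1 RNA was not tested. Within the monocyte lineage the log2 fold change was 0.59 ± 0.20. Of the precursor clusters, the one led by Elane, Ms4a3, Prtn3 and Mpo had 368 and 343 CPM in WT and 653 and 617 CPM in TLR9-/-. It held 720 and 1711 of the 1126 and 2174 Alas1 UMIs of the class in WT, and 3594 and 7344 of 5477 and 9462 in TLR9-/-. Alas1 itself was among the 10 leading genes of that cluster, so its high level there is no finding. The other precursor cluster, led by Ass1 and Cd34, had 170 and 173 CPM in WT and 184 and 194 CPM in TLR9-/-. The genotype difference was thus wider in the first cluster, and in both the TLR9-/- libraries were above WT.

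Outside the monocyte lineage Alas1 was also higher in both TLR9-/- libraries in the B lineage (log2 fold change 0.60 ± 0.25). It was at 16.4 and 19.7 CPM there, against 9.50 and 14.1 CPM in WT. B-cell precursors (14.8 and 20.7 CPM against 8.30 and 11.7 CPM) and dendritic cells (24.6 and 34.7 CPM against 21.2 and 24.5 CPM) had the same direction. Within dendritic cells the libraries overlapped in both clusters. The cluster led by Klk1 had 28.3 and 35.8 CPM in TLR9-/- and 16.8 and 29.5 CPM in WT. The cluster led by Cd209a had 21.4 and 33.6 CPM in TLR9-/- and 28.9 and 17.7 CPM in WT. Alas1 differed too in erythroid cells, which make haem mainly through Alas2. It was at 19.7 and 20.8 CPM there in WT and at 39 and 39.8 CPM in TLR9-/-, a ratio of mean CPM of 1.95. In the erythroid cluster led by Car1 and Mt2, which held most of these UMIs and of whose cells 23.6% were marked as doublets, it was at 40.4 and 30.6 CPM in WT and 59.1 and 58.2 CPM in TLR9-/-. That cluster held 45.5% and 60.5% of all UMIs of the class in WT and 63.5% and 64.9% in TLR9-/-. In the erythroid cluster led by Mgst3 and Hba-a1 the libraries overlapped, at 2.94 and 5.95 CPM in WT and 5.36 and 5.17 CPM in TLR9-/-. The erythroid cluster led by Hbb-bs overlapped too, on 0 to 4 UMIs per library. In neutrophils the libraries overlapped, at 69.3 and 84.8 CPM in WT and 84 and 85.6 CPM in TLR9-/-. HSPC also overlapped.

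Abhd14b was low everywhere and differed widely by cell class. Over all cells it had 165 and 166 UMIs in WT and 134 and 197 UMIs in TLR9-/- (5.29 and 4.01 against 2.67 and 3.08 CPM, log2 fold change −0.69 ± 0.25). In the monocyte lineage it was at 7.27 and 5.38 CPM in WT and 1.35 and 1.77 CPM in TLR9-/-, 4.05 times higher in WT (log2 fold change −2.00 ± 0.30). The B lineage showed a difference of like size on fewer UMIs, 42 and 34 in WT and 4 and 10 in TLR9-/- (−1.84 ± 0.55). Both lineages had no overlap of the genotypes. The B lineage value was −2.82 without TLR9-/- 2 and −1.19 without TLR9-/- 1.

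Dendritic cells had the opposite direction for Abhd14b. There it had 25 and 17 UMIs (9.28 and 9.24 CPM) in WT and 52 and 58 UMIs (16 and 14.4 CPM) in TLR9-/-, a ratio of mean CPM of 1.64. The difference was wider in the cluster led by Klk1, Siglech and Bst2, genes of plasmacytoid dendritic cells. Abhd14b was at 11.6 and 13.3 CPM there in WT and 27.7 and 22.6 CPM in TLR9-/-. In the dendritic cluster led by Cd209a and Cst3 the TLR9-/- libraries were also above WT, narrowly. That cluster had 5.15 and 3.80 CPM in WT and 5.79 and 6.01 CPM in TLR9-/-, on 3 to 12 UMIs per library. In basophils, the class with the highest mean WT level, the libraries overlapped (10.8 and 30.7 CPM in WT, 20.2 and 22.3 CPM in TLR9-/-). HSPC were next, at 14.8 and 11.9 CPM in WT and 6.30 and 8.86 CPM in TLR9-/-. Abhd14a, its partner on the opposite strand, was at 15.8 and 17.1 CPM in WT and 15.2 and 14.5 CPM in TLR9-/- monocyte lineage cells (log2 fold change −0.16 ± 0.15, edgeR adjusted p = 0.74).

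Parp3, the next gene, starts 247.72 kb from the start of Tlr9 and differed in a set of classes partly shared with Abhd14b. Both genes were lower in TLR9-/- in HSPC, monocytes, monocyte precursors and neutrophils. In the monocyte lineage Parp3 was at 7.13 and 6.62 CPM in WT and at 2.70 and 2.41 CPM in TLR9-/- (log2 fold change −1.43 ± 0.24). Monocytes themselves had 10.8 and 12.8 CPM in WT and 3.22 and 4.09 CPM in TLR9-/-, 3.23 times higher in WT. HSPC were at 11.1 and 11.0 CPM in WT and 3.54 and 6.04 CPM in TLR9-/-. These classes had no overlap of the genotypes. In dendritic cells, however, Parp3 was at 16.7 and 22.8 CPM in WT and 16.6 and 21.1 CPM in TLR9-/-, and mature B cells also overlapped (17.4 and 25.9 CPM against 18.9 and 17.2 CPM). These were the 2 classes with the highest WT levels, and they did not differ from each other beyond their spread. Rrp9 on the opposite strand was at 15.6 and 12.4 CPM in WT and 17.9 and 21.1 CPM in TLR9-/- monocyte lineage cells (log2 fold change 0.48 ± 0.18, edgeR adjusted p = 0.443).

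**Figure D3:**
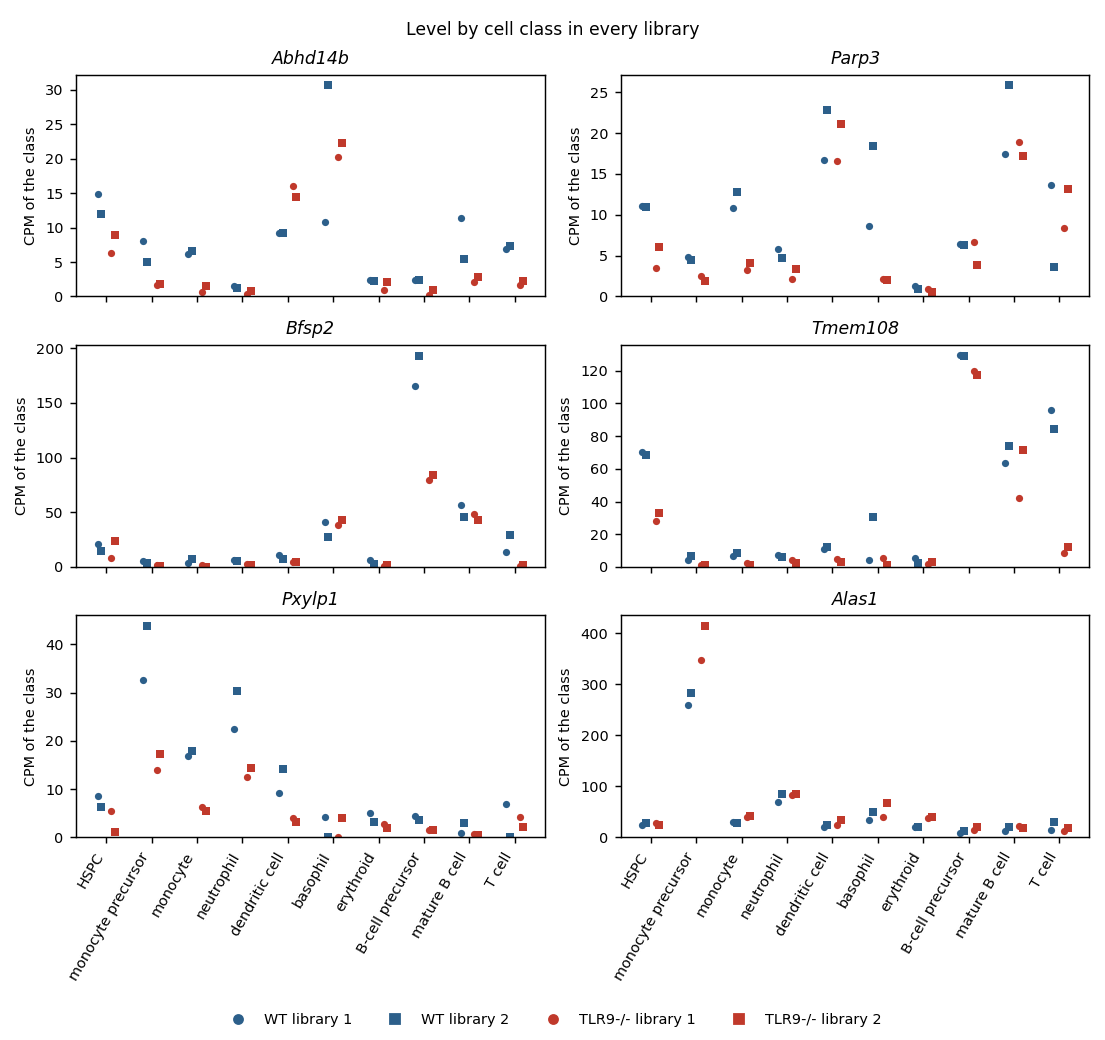
CPM of 6 of the genes in the 10 cell classes with at least 100 cells in every library, by library (blue WT, red TLR9-/-, circles library 1, squares library 2); axes start at 0. Abhd14b is lower in both TLR9-/- libraries in monocytes (at most 1.55 CPM against at least 6.11) and higher in dendritic cells, and Tmem108 separates the genotypes in T cells and HSPC but lies close together in B-cell precursors.

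Bfsp2 was mainly a B lineage transcript in these cells. B-cell precursors had 166 and 193 CPM in WT, apart from the next class, mature B cells, at 56.7 and 45.7 CPM. In TLR9-/- B-cell precursors it was at 79.4 and 84.5 CPM, a mean CPM 2.19 times higher in WT, and in mature B cells at 48.7 and 42.9 CPM, within overlap of WT. The log2 fold change of the whole B lineage was −1.06 ± 0.18. The clusters within the lineage differed widely in how far the genotypes lay apart. In the cluster led by Vpreb1, Igll1, Vpreb2 and Dntt, genes of early precursors that encode the surrogate light chain and the terminal transferase of heavy chain joining, Bfsp2 was at 421 and 429 CPM in WT and 130 and 83.2 CPM in TLR9-/-. In a second such cluster, of which Bfsp2 was itself a leading gene, it was at 338 and 381 CPM in WT and 110 and 141 CPM in TLR9-/-. In the precursor cluster led by Myl4 and Rsph1 it was at 81.8 and 96.8 CPM in WT and 58.0 and 66.9 CPM in TLR9-/-, and in the mature B cell cluster led by Ms4a1 and Tnfrsf13c the libraries overlapped. In the largest mature B cell cluster, led by H2-Aa and Ighd, Bfsp2 was lower in TLR9-/-. It was at 45.7 and 37.4 CPM there in WT and 33.9 CPM in both TLR9-/- libraries. A small mature B cell cluster led by Iglc2, Ms4a1 and Iglc1 went the other way, at 45.5 and 23.1 CPM in WT and 65.6 and 74.3 CPM in TLR9-/-, on 5 to 15 UMIs per library. The genotypes thus lay farthest apart in both early clusters. Of the 10 classes, those outside the B lineage did not all differ in Bfsp2. The libraries overlapped in HSPC and in basophils, which had the highest mean WT level outside the B lineage. Basophils were at 41.1 and 27.6 CPM in WT and 38.3 and 42.6 CPM in TLR9-/-. T cells, dendritic cells, erythroid cells, monocytes, monocyte precursors and neutrophils were lower in both TLR9-/- libraries.

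Tmem108, the neighbour of Bfsp2, was close to equal in B-cell precursors as a whole, at 129 CPM in both WT libraries and at 120 and 117 CPM in TLR9-/-. Within them its direction differed by cluster. In the Vpreb1 and Dntt cluster it was at 141 and 129 CPM in WT and 65.8 and 38.8 CPM in TLR9-/-, and in the second early cluster at 112 and 118 CPM in WT and 77.9 and 52.9 CPM in TLR9-/-. In the Myl4 cluster it was higher in TLR9-/-, at 157 and 177 CPM against 128 and 133 CPM in WT. The cluster led by Rag1 and Ebf1 overlapped. The TLR9-/- libraries were therefore below WT in both early clusters and above it in the Myl4 cluster, and this difference between clusters was not tested. In the mature B cell cluster led by H2-Aa and Ighd, Tmem108 was also lower in TLR9-/-, at 42.0 and 73.7 CPM against 91.4 and 99.8 CPM in WT. In the mature B cell cluster led by Ms4a1 and Tnfrsf13c it overlapped.

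**Figure D4:**
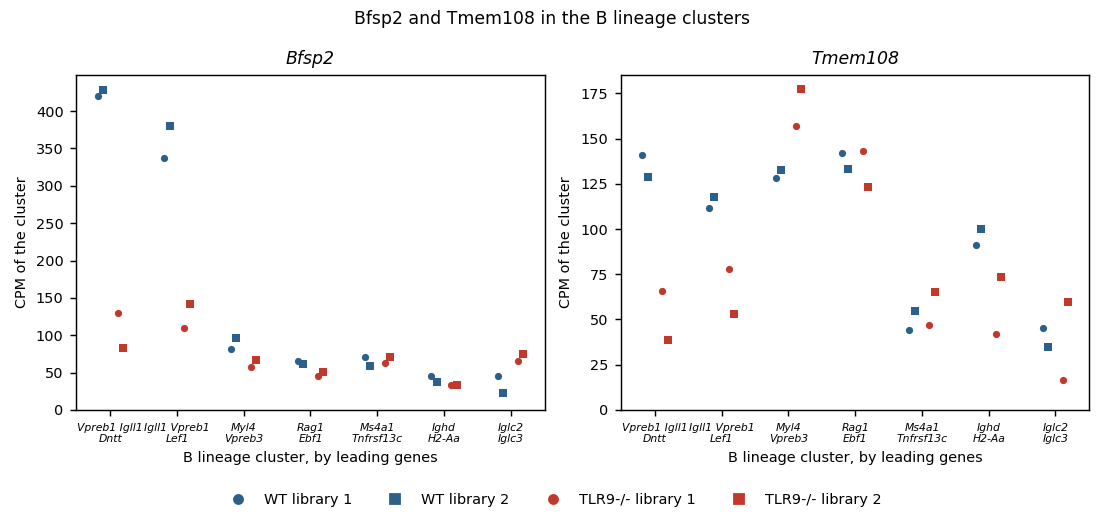
CPM of Bfsp2 (left) and Tmem108 (right) in the 7 B lineage clusters, each named by leading genes, by library (blue WT, red TLR9-/-, circles library 1, squares library 2); axes start at 0. In the 2 leftmost clusters Bfsp2 is at 338 to 429 CPM in WT and 83.2 to 141 CPM in TLR9-/-, and Tmem108 is above WT only in the Myl4 Vpreb3 cluster.

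T cells and HSPC also held Tmem108. T cells had 42 and 23 UMIs (95.8 and 84.3 CPM) in WT and 10 and 11 UMIs (8.32 and 12.1 CPM) in TLR9-/-, 8.81 times higher in WT. HSPC had 70.4 and 68.7 CPM in WT and 28.3 and 33 CPM in TLR9-/-. Neither class showed overlap of the genotypes. RNA of B-cell precursors moved with the genotype in T cells, where the 11 precursor markers together were at 1439 and 1558 CPM in WT and 350 and 322 CPM in TLR9-/-, with 11 and 10 of 11 above 0 in WT and 9 and 8 in TLR9-/-. In HSPC the markers overlapped between the genotypes, at 912 and 661 CPM in WT and 383 and 767 CPM in TLR9-/-. Per 1000 UMIs of these markers, Tmem108 had 66.6 and 54.1 UMIs in WT T cells and 77.2 and 104 in WT HSPC, against 9.26 and 10.8 in WT B-cell precursors. In TLR9-/- libraries the same measure was 23.8 and 37.7 in T cells and 74.1 and 43.1 in HSPC, below both WT libraries in each. Dntt, which is on this marker list, was itself among the 10 leading genes of the HSPC cluster. In HSPC these markers therefore do not measure RNA of B-cell precursors alone. The part of precursor RNA in the values of T cells and HSPC was not tested. Bfsp2 had 13.7 and 29.3 CPM in WT T cells and 0.832 and 2.20 CPM in TLR9-/- T cells, on 1 to 8 UMIs per library. Per 1000 marker UMIs it had 9.51 and 18.8 UMIs in WT T cells and 2.38 and 6.85 in TLR9-/- T cells. WT B-cell precursors had 11.9 and 16.1 by that measure.

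In neutrophils and the monocyte lineage both genes were low. Neutrophils had 6.17 and 5.26 CPM of Bfsp2 in WT and 2.92 and 2 CPM in TLR9-/-, and 7.26 and 5.95 CPM of Tmem108 in WT and 4.56 and 2.22 CPM in TLR9-/-. Most of these UMIs came from 1 small cluster of 409 cells, of which 67.2% were marked as doublets. It held 17 of 17 and 35 of 38 Bfsp2 UMIs in WT and 15 of 16 and 16 of 18 in TLR9-/-, and 20 of 20 and 42 of 43 Tmem108 UMIs in WT and 22 of 25 and 11 of 20 in TLR9-/-. Each of the other 3 neutrophil clusters had at most 2 UMIs of Bfsp2 and 6 of Tmem108 in any library. With marked doublets left out, neither gene passed the filter on low counts in neutrophils. The precursor markers were at 789 and 608 CPM in WT neutrophils and 473 and 290 CPM in TLR9-/- neutrophils. The neutrophil values of Bfsp2 and Tmem108 therefore rest on cells that were mostly marked as doublets.

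In the monocyte lineage Bfsp2 was at 4.61 and 4.99 CPM in WT and 1.80 and 0.702 CPM in TLR9-/-, and Tmem108 at 5.45 and 7.39 CPM in WT and 1.53 and 1.24 CPM in TLR9-/-. A monocyte cluster of 190 cells, 71.6% of them marked as doublets, held 8 and 19 of the 10 and 21 monocyte UMIs of Bfsp2 in WT and 9 and 0 of 11 and 1 in TLR9-/-. It also held 17 and 15 of the 18 and 24 monocyte UMIs of Tmem108 in WT and 13 and 6 of 15 and 9 in TLR9-/-. In monocyte precursors, which lie outside that cluster, Bfsp2 was at 5.29 and 4.04 CPM in WT and 1.78 and 0.833 CPM in TLR9-/-, and Tmem108 at 4.37 and 6.91 CPM in WT and 1.02 and 1.23 CPM in TLR9-/-. With marked doublets left out, the log2 fold changes of the lineage were −1.71 for Bfsp2 and −2.02 for Tmem108, against −1.98 and −2.24 with them. The precursor markers were at 454 and 400 CPM in WT and 201 and 137 CPM in TLR9-/- monocyte lineage cells, and their part in these values was not tested.

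Pxylp1, the gene farthest from Tlr9, was mainly a myeloid transcript. In WT its order was monocyte precursors (32.6 and 43.8 CPM), neutrophils (22.5 and 30.3 CPM), monocytes (16.9 and 18.0 CPM) and dendritic cells (9.28 and 14.1 CPM), each apart from the next. In TLR9-/- it was at 14.1 and 17.2 CPM in monocyte precursors, 12.6 and 14.4 CPM in neutrophils, 6.29 and 5.50 CPM in monocytes and 4.01 and 3.22 CPM in dendritic cells. Both TLR9-/- libraries were below both WT libraries in each of these 4 classes, with WT higher by 2.44, 1.96, 2.96 and 3.24 times by mean CPM. The log2 fold change was −1.29 ± 0.22 in the monocyte lineage and −0.91 ± 0.23 in neutrophils. In the B lineage Pxylp1 had 33 and 37 UMIs in WT and 10 and 6 in TLR9-/- (−1.55 ± 0.42). Over all cells the value was smaller, −0.73 ± 0.23, and it was −0.44 without WT 2 and −0.97 without WT 1.

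Genes around Tlr9 that are not among the 9 were tested to see whether differences run through the region. Within 5 Mb of Tlr9 and with the 9 genes and Tlr9 left out, 132 genes were tested over all cells, 108 in the B lineage, 106 in the monocyte lineage and 90 in neutrophils. By edgeR's quasi-likelihood test with Benjamini-Hochberg adjustment over all genes tested, 0 of them passed in any of the 4 sets. With Tlr9 and those of the 9 genes that lie within 5 Mb counted, 0 passed as well. The disrupted gene itself was thus not called, so the 0 does not show that the region lacks differences. Of all genes tested, 0.268%, 0.287%, 0.289% and 0.48% passed. At an unadjusted p under 0.05 the counts were 25, 9, 21 and 7 of these genes (18.9%, 8.33%, 19.8% and 7.78%), beside 17.1%, 5.65%, 10.4% and 7.19% of all genes, and DESeq2 gave 8, 0, 4 and 0 at an adjusted p, beside 3.87%, 0.35%, 0.816% and 0.277% of all the genes it tested. With the replicate number as a block in edgeR's fit the counts were 9, 2, 16 and 3, beside 8.21%, 1.04%, 8.31% and 2.60% of all genes. Under 1 Mb from Tlr9 the unadjusted counts were 7 of 20, 4 of 18, 7 of 16 and 0 of 12 (35%, 22.2%, 43.8% and 0%). The median log2 fold change of the genes within 5 Mb was −0.04, 0.00, −0.03 and 0.02, beside −0.02, 0.01, −0.01 and −0.01 for all genes tested. Opposite directions cancel in that median. Taken without sign, it was 0.47, 0.25, 0.42 and 0.22 under 1 Mb and 0.27, 0.18, 0.22 and 0.21 within 5 Mb. For all genes tested it was 0.26, 0.19, 0.20 and 0.21. The genes of chromosome 9 that did pass, Col5a3, Jhy, Zfp846 and Casp4, all lie more than 20 Mb from Tlr9.

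Among the tested genes nearest to Tlr9, Col6a4, a collagen VI chain gene that starts 233 kb away on the lower-coordinate side, had 0 UMIs in both WT libraries. In TLR9-/- it had 21 and 74 UMIs over all cells, 14 and 52 of them in the B lineage (1.87 and 9.01 CPM). Its mean B lineage level was at least 36.1-fold higher in TLR9-/- than the floor of 3 UMIs over the WT group, a bound that rests on TLR9-/- 2 (TLR9-/- 1 alone gives at least 12.4-fold), and the edgeR adjusted p was 0.123. Dusp7, a phosphatase of MAP kinases 146 kb away on the other side, was at 9.28 and 11.5 CPM in the WT B lineage and 4.67 and 6.58 CPM in the TLR9-/- B lineage (log2 fold change −0.91 ± 0.28, edgeR adjusted p = 0.61). Poc1a, a centriole gene 58.5 kb away, differed little, with a log2 fold change of −0.04 ± 0.23 in the B lineage (edgeR adjusted p = 0.992) and 0.20 ± 0.14 in the monocyte lineage (0.641). Glyctk, the gene of glycerate kinase, had a log2 fold change of −0.73 ± 0.30 over all cells (edgeR adjusted p = 0.298) and 0.10 ± 0.40 in the B lineage (0.99). Over all cells 4930500F10Rik, which overlaps Alas1 on the opposite strand and had 6 to 19 UMIs per library, had one of −1.22 ± 0.50 (edgeR adjusted p = 0.296), and D030055H07Rik, at under 1 CPM, one of −1.31 ± 0.41 (0.216). In the lineages Pik3r4, Atp2c1, Aste1 and Rpl29 were also among the nearest genes tested. In the monocyte lineage Pik3r4 had a log2 fold change of −0.50 ± 0.19 (edgeR adjusted p = 0.46) and Rpl29 one of −0.04 ± 0.16 (0.939). Of the genes tested nearest to Tlr9, then, some lay on each side of 0, and 0 passed.

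Genes with roles related to the 9, lying mostly on other chromosomes, were looked at on the same fits. The lists hold 72 genes: other Abhd and Parp family members, twinfilin and cofilin partners, haem synthesis, the Wdr82 complexes, Ppm phosphatases, Vim and Bfsp1, and proteoglycan linkage. Of these 70, 67, 69 and 66 were tested over all cells and in the 3 lineages, and 0 passed in either direction by edgeR. At an unadjusted p under 0.05 there were 14, 3, 7 and 3 (20%, 4.48%, 10.1% and 4.55%). Of all genes tested, 17.1%, 5.65%, 10.4% and 7.19% had such a p. The median log2 fold change over the lists was −0.12, −0.05, −0.01 and 0.03. In the monocyte lineage the 11 other Parp genes had a median of −0.20 (range −0.66 to 0.19), beside −1.43 for Parp3. The 15 other Abhd genes tested there had a median of −0.01 (range −0.43 to 0.46), beside −2.00 for Abhd14b. The Abhd list includes Abhd14a, which overlaps Abhd14b. Parp3 and Abhd14b were chosen with their values known, so nothing is read from how far they lie from their families.

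The genes whose levels over 40 sums (10 classes in 4 libraries) ran most like each of the 9 were found by Pearson's r of log2(CPM + 10), as a description, since the sums share libraries and classes. Twf2 ran most like Arpc2, Pstpip1 and Arpc1b (r = 0.94, 0.94 and 0.92), which encode 2 subunits of the actin-branching Arp2/3 complex and a cytoskeletal adaptor. Tmem108 ran most like Insl6, Ip6k2 and Cpm (0.92, 0.89 and 0.87), and Alas1 like B4galt6, Gm1604a and Cldn15 (0.89, 0.88 and 0.88). The others were Agps, Mctp1 and Sgms2 for Pxylp1 (0.88, 0.84 and 0.84), Susd1, Tmem131l and Rrm2b for Bfsp2 (0.87, 0.86 and 0.85) and N4bp2l2, Zfp664 and Pnisr for Wdr82 (0.86, 0.86 and 0.85). Ppm1m ran most like Rogdi, Lsp1 and Sp140 (0.86, 0.85 and 0.83), Parp3 like Vav2, Zcwpw1 and Leng8 (0.84, 0.82 and 0.81), and Abhd14b like Ptprs, Cd244 and Lag3 (0.83, 0.82 and 0.81). Of these 27 genes, Ip6k2 and Pstpip1 also lie on chromosome 9, the former 2.56 Mb from Tlr9.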

How the data were processed

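Single-cell 5′ RNA libraries of bone marrow mononuclear cells were made from 2 TLR9-/- and 2 WT mice, 1 library per mouse. The deposited tables hold whole-number UMI counts per gene and cell, which the authors made with Cell Ranger and STAR on mm10 (the matrix header names Cell Ranger 3.0.1). Seurat 2.3.4 stands in the submitters' processing notes. Each mouse gave 1 library, so p-values measure the spread between 2 mice per genotype.

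Cells with 200 to 10000 genes and at most 10% mitochondrial UMIs were kept (the study's methods print a limit that would keep almost no cell). Cells were clustered with scanpy 1.11.5 and leidenalg 0.10.2 (2000 variable genes, 30 components, 15 neighbours, resolution 1), and clusters were named from marker lists where markers stood among their 10 leading genes. Doublets were marked with Scrublet and kept in the main sums. In WT 2 the automatic threshold marked almost no cell, so the highest scores were marked. UMIs were summed per library over all cells and over each lineage, and tested with edgeR 4.0.16 (R 4.3.3, TMM, filterByExpr, quasi-likelihood, two-sided, adjusted p under 0.05). The scripts were tested on simulated data. CPM in the text uses plain sums without TMM. Positions come from GENCODE M21 and promoters from RefSeq. Alternatives were RLE scaling, DESeq2 1.42.0, other count filters, a replicate block, each library left out, thinning, doublets removed, and windows of 1 and 10 Mb.

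The 9 genes, the gene lists and the tests were chosen with earlier results of these data known. Non-members named in the text are the 3 tested genes nearest to Tlr9 on each side, called genes, and the 3 genes most like each of the 9. Of the nearest genes, values are given for those tested over all cells and, in the monocyte lineage, for Pik3r4 and Rpl29. Clusters, cell classes and the opposite-strand partners were described after their values were seen. Counting error only is covered by the floor of 3 UMIs. Gene by gene values of the haem synthesis list are not reported here.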

Additional observations from a re-analysis of the deposited data

Results flagged for a closer look

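Abhd14b moved in opposite directions between cell classes: both TLR9-/- libraries lay above both WT libraries in dendritic cells, with a log2 ratio of mean CPM of 0.72, and below them in 7 other classes with at least 20 UMIs in all. The log2 ratios there were −2.55 in monocytes, −2.12 in B-cell precursors, −1.89 in monocyte precursors, −1.77 in mature B cells, −1.24 in neutrophils, −0.82 in HSPC and −0.64 in erythroid cells. Some rest on few UMIs. B-cell precursors had 1 and 3 UMIs in TLR9-/-. Neutrophils had 4 and 9 in WT and 2 and 7 in TLR9-/-, and Abhd14b did not pass the filter on low counts there. In erythroid cells the separation was narrow (nearest libraries 2.10 and 2.23 CPM). Wdr82 lay narrowly above WT in erythroid cells (log2 ratio 0.10, nearest libraries 32.0 and 31.2 CPM). In monocytes it lay narrowly below (−0.32, nearest libraries 24.4 and 25.2 CPM). Such separation was common: 12.8% to 25.9% of all genes tested lay wholly on a given side over all cells and in the 3 lineages. Shares within single classes were not computed. The differences between classes were not tested.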

How the results depend on the processing

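The count of flanking genes called within 5 Mb, 0 in each set of cells, was 0 with RLE scaling, with at least 50 UMIs in 2 libraries, with the mitochondrial limit lifted, after thinning and in windows of 1 and 10 Mb. It was 8 (all cells) and 4 (monocyte lineage) with DESeq2; 6, 6, 10 and 3 without the low-count filter (all cells, B lineage, monocyte lineage, neutrophils); and 2 in the B lineage without marked doublets. With 1 library left out it ranged from 0 to 1 over all cells, 0 to 5 in the B lineage (5 without TLR9-/- 1, 3 without TLR9-/- 2), 0 to 1 in the monocyte lineage and 0 to 1 in neutrophils. Related genes called, 0 as reported, were rerun under alternatives chosen after seeing the data: 5 with DESeq2 and 3 without the filter over all cells, 1 without the filter in the monocyte lineage, and 0 to 1 with 1 library left out in these 2 sets. Of all genes, 2.98%, 1.33%, 2.75% and 1.27% were called without the filter in the 4 sets. With DESeq2 3.87%, 0.35%, 0.816% and 0.277% were called. The causes were not tested.

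The methods give 2 experiments, each with 1 WT and 1 TLR9-/- mouse. Whether a replicate number marks an experiment is not said in the labels, and with 2 pairs this cannot be settled. Same-numbered libraries deviated together (r = 0.36, 0.42, 0.51 and 0.37 in the 4 sets). With 2 libraries per genotype the crossed pairing must give the same r with the opposite sign, so either pairing could have come out positive. The sets share the same libraries, and library 2 was the deeper one over all cells in both genotypes. These values therefore do not show what the numbers mark. With the replicate number as a block, flanking genes called were 9, 2, 16 and 3, and related genes called were 7 (all cells), 3 (monocyte lineage) and 1 (neutrophils). Of all genes, 8.21%, 1.04%, 8.31% and 2.60% were called with the block. Genes called in all were 1165, 116, 977 and 255 with the block, against 38, 32, 34 and 47. Without the filter they were 605, 224, 475 and 197, with DESeq2 785, 59, 141 and 43, without TLR9-/- 1 they were 81, 354, 181 and 149, without TLR9-/- 2 62, 55, 84 and 73, without WT 1 58, 19, 68 and 68, and without WT 2 88, 20, 121 and 52. Of 410 values of the 9 genes under alternatives, 389 moved by less than the spread between libraries and 19 changed sign, none of them with a reported size above 0.3. Depth limits Tlr9, Abhd14b and Parp3 most, the 3 with the fewest UMIs over all cells.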
